A study of Mus musculus with 12 samples.

Results

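Genes known to respond to heat or cold were followed in mouse submandibular glands (SMGs), the major salivary glands below the jaw. The 10 were taken by symbol from the deposited table of counts and were 8 heat shock genes (Hspa1a, Hspa1b, Hsph1, Dnajb1, Hsp90aa1, Hspb1, Hspd1 and Hspe1) and 2 cold-inducible genes (Cirbp and Rbm3), that is 10 of the 56065 genes in that table. The glands came from wild-type (WT) C57BL/6J mice and from C57BL/6J-Pou2f3 knockout (KO) mice, which carry the Pou2f3 em1Cbwi allele in all tissues. Pou2f3 is the transcription factor that tuft cells (TCs), rare chemosensory epithelial cells, require. Bulk RNA was sequenced from 3 WT females, 3 KO females, 3 WT males and 3 KO males at 8 weeks of age, 1 library per mouse. The genotype comparison within each sex asked what the gland expresses when TCs are missing, and the sex comparison within each genotype asked how female and male glands differ.

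Heat shock proteins are molecular chaperones, which hold and fold other proteins. HSP70 proteins bind exposed stretches of unfolded protein in a cycle driven by J-domain partners and by nucleotide exchange factors, HSP90 completes the folding of kinases and of steroid receptors, and the HSP60-HSP10 chamber folds proteins inside mitochondria. Most of these genes are switched on together by the heat shock factor HSF1, which binds repeats of the motif nGAAn, whereas the RNA-binding proteins CIRBP and RBM3 rise when cells are cooled and follow the daily rhythm of body temperature. Secretory glands such as the SMG make large amounts of protein for export and express chaperones without any added stress.

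Sequence upstream of the start of transcription was read from the GRCm39 genome, the build of the deposited data, at the canonical transcripts of the Gencode M39 annotation. The stretches that hold matches to a pair of inverted nGAAn units are shown because they are the part of these genes that HSF1 is known to read. The search used GAANNTTC and TTCNNGAA, each of which is its own reverse complement, so that 1 scan covers both strands. Matches are in capitals, and where matches overlap they form 1 run.
Hspd1-Hspe1 (chr1:55127184-55127290, plus strand): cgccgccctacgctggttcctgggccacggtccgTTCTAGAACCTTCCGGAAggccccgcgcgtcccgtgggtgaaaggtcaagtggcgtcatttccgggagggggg
Hspa1a (chr17:35191133-35191252, minus strand): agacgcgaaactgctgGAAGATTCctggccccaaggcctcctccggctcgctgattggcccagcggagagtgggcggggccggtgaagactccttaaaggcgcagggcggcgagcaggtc
Hspa1b (chr17:35178215-35178334, minus strand): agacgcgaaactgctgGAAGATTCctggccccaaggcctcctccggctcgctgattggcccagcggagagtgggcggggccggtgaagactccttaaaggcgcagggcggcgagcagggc
Hsph1 (chr5:149559807-149559926, minus strand): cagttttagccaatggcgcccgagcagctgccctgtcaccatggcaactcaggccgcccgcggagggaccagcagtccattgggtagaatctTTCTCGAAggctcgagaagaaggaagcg
Hspb1 (chr5:135916640-135916759, plus strand): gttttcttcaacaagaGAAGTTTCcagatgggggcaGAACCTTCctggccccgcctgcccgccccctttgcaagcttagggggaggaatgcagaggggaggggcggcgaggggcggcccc

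Hspd1 and Hspe1 start 108 bases apart on opposite strands, so the first sequence is the whole stretch between them and its matches count for both genes. It held 3 overlapping matches, and they also make up the longer motif GAANNTTCNNGAA, which was found on either strand in 0.352% of 21599 protein-coding promoters of 250 bases. The shorter pair was found in 12.3% of those promoters. Within the 250 bases before the start, Hspa1a, Hspa1b and Hsph1 held 1 match each and Hspb1 held 2, whereas Dnajb1, Hsp90aa1, Cirbp and Rbm3 held none of these letters. The upstream stretches of Hspa1a and Hspa1b were identical at 119 of 120 bases. A match describes the sequence and is not a measured binding site.

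The libraries held 47031917 to 67881902 estimated counts each. All 10 genes passed the filter on low counts and were among the 17893 tested. Values below are normalized counts, the counts scaled by edgeR's TMM factors to 1 common library size, and a gene was called at an adjusted p under 0.05 (quasi-likelihood test of edgeR, p-values adjusted by Benjamini-Hochberg over all 17893 genes). Pou2f3 itself had 0 to 2 counts in the WT females and 0 in the KO females. It had 0 to 10 in the WT males and 0 to 3 in the KO males. The knockout could therefore not be checked at this depth, where 0 counts allow up to 3 counts per library. These 3 counts are 0.0442 to 0.0638 CPM (counts as a rate) when taken per library total without TMM factors. All other CPM values use the library total multiplied by its TMM factor, a scale on which this limit was not computed. The other TC markers were not called lower in KO. Of 8 markers only Dclk1 and Avil passed the filter, and the 8 summed to 15.5 to 19.7 CPM in WT females, 18.9 to 22.1 in KO females, 7.86 to 9.35 in WT males and 8.25 to 9.73 in KO males, most of it from Dclk1, which is also expressed outside TCs. Dclk1 was at 997.4 ± 127 normalized counts in WT and 1141 ± 85.2 in KO females (SD, n = 3 each; edgeR, adjusted p = 0.22), and Avil was higher in KO females (9.87 ± 7.73 to 42.5 ± 19.8, log2 fold change 2.06 ± 0.57, adjusted p = 0.014). In males neither was called. Of 9 granular convoluted tubule markers, cells typical of this gland, none was at 0 in any library, and they summed to 4460 to 9380 CPM in females and to 57200 to 103000 in males. The single 7SL RNA gene Rn7s1 took 11.8% to 39.1% of a library, and TMM factors ran from 0.625 to 0.759 in WT females and from 0.902 to 1.45 in the other groups. In bulk RNA, fewer cells of a type and less RNA per cell cannot be told apart.

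Some libraries stood apart in the acinar list, whose 12 genes include products better known from the neighbouring sublingual and parotid glands. Muc19, the mucin of sublingual mucous cells, was at 4900 CPM in KO female replicate 3 and at 7390 in WT male replicate 3, and at 1.80 to 174 in the other 10 mice. Dcpp2 was highest in the same 2 mice, at 424 and 721 CPM. Smr3a was at 841 CPM in KO male replicate 2, beside 0 to 52.9 elsewhere, and was at 0 in 5 libraries. Without KO female replicate 3 the number of the 10 genes called by edgeR between KO and WT females was 4 in place of 6. Leaving out WT male replicate 3 or KO male replicate 2 left the 0 calls in males as they were and gave 4 interactions in place of 5. These falls were not particular to the mice named here. Cirbp lost its female call without any 1 of the 6 female libraries. Hspb1 lost its call also without KO female replicate 2 or WT female replicate 2 or 3. The Cirbp interaction lost its call in 8 of the 12 fits that left out 1 library. The part of such gland content in the other values was not tested.

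The female knockout glands differed from WT glands in 6 of the 10 genes, while in males none passed the threshold. In KO females 5 genes were down-regulated (the mitochondrial pair Hspd1 and Hspe1, the inducible HSP90 gene Hsp90aa1, the small heat shock gene Hspb1 and the cold-inducible Rbm3) and 1 was up-regulated, the cold-inducible Cirbp. Across all genes 36.9% were called in females, 17.6% higher and 19.3% lower in KO, so a large share of the transcriptome moved as well. The median log2 fold change of the 10 genes was -0.41, beside 0.03 over all genes tested and -0.08 over protein-coding genes. In males 0.235% of genes were called, and the median of the 10 was 0.11 beside -0.04 over all genes.

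**Figure D1:**
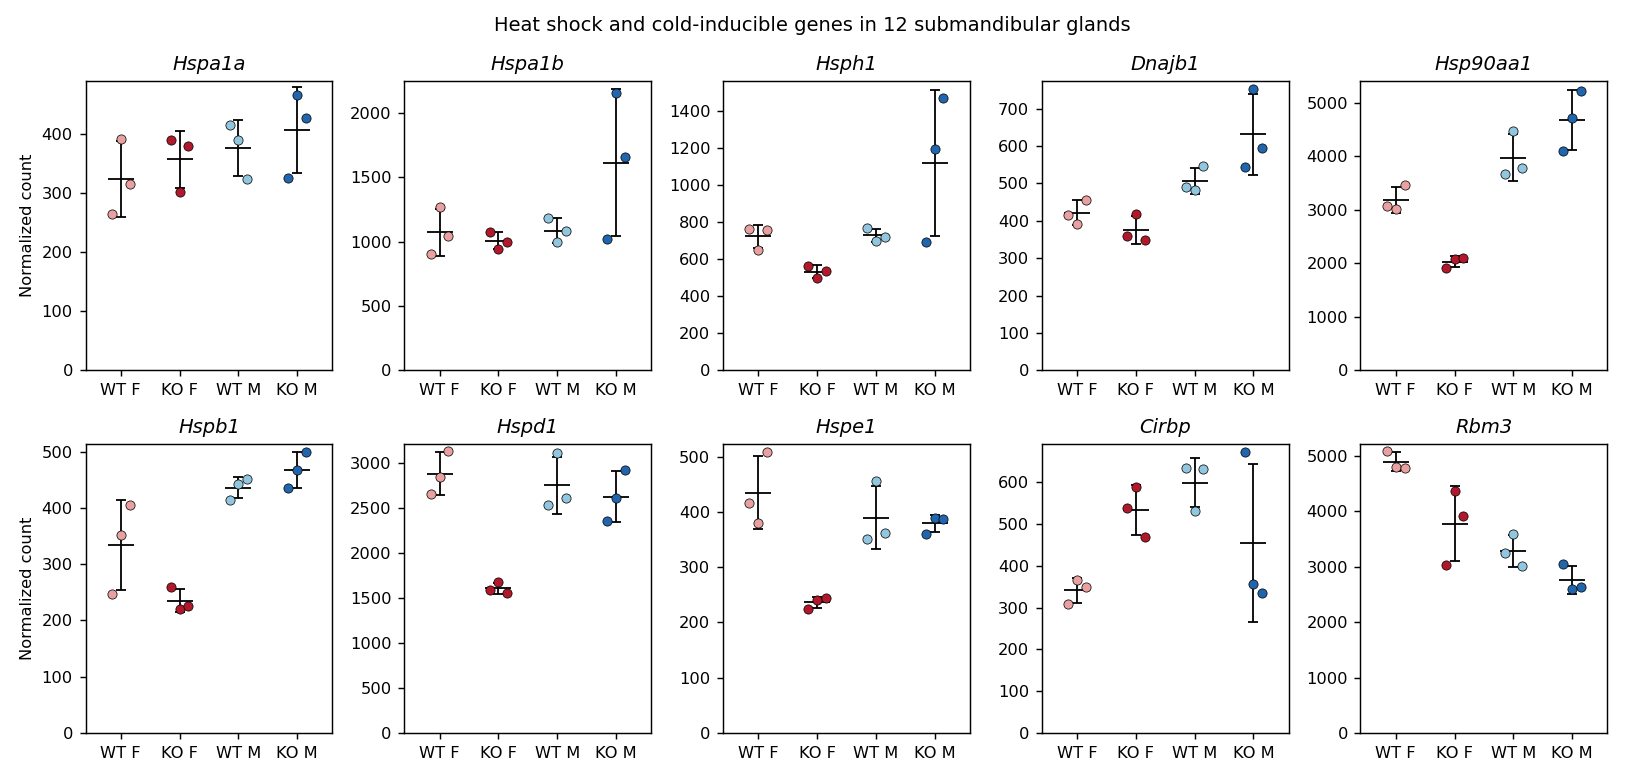
Normalized counts of the 10 genes (vertical axes from 0, a separate scale for each gene) in each of 12 mice, with replicates 1 to 3 from left to right in each group. Points are mice, horizontal bars the group mean and whiskers the SD over 3 mice, and in the KO female column Hspd1 sits between 1561 and 1675, below the other 9 mice.

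The mitochondrial chaperonin genes gave the clearest difference. Hspd1 (chr1:55116989-55171038, minus strand), which encodes HSP60, was at 2664, 2853 and 3140 normalized counts in the WT females and at 1595, 1675 and 1561 in the KO females. In the males it was at 2538, 3119 and 2611 in WT and at 2363, 2610 and 2922 in KO. All 3 KO females lay below all 9 other mice, and the male groups overlapped. The log2 fold change of Hspd1 between KO and WT was -0.84 ± 0.11 (SE, n = 3 against 3; edgeR quasi-likelihood, adjusted p = 0.00027) in females and -0.07 ± 0.11 (adjusted p = 0.87) in males.

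Hspe1 (chr1:55127260-55130476, plus strand) encodes HSP10, the lid of the HSP60 chamber. It was at 416, 380 and 509.3 normalized counts in WT females and at 224, 240.6 and 244.1 in KO females. WT males had 351.3, 455.8 and 362 and KO males 360.9, 389 and 387.6. As for its partner, the KO females were the lowest 3 of the 12 mice and the male groups overlapped. Its log2 fold change was -0.88 ± 0.14 in females (edgeR quasi-likelihood, adjusted p = 0.00065) and -0.04 ± 0.14 in males (adjusted p = 0.94). The genotype effect differed between the sexes for both genes, with a difference of log2 fold changes, female minus male, of -0.78 ± 0.15 for Hspd1 (edgeR interaction term, adjusted p = 0.0055) and of -0.84 ± 0.19 for Hspe1 (adjusted p = 0.01). These calls passed the threshold with any 1 library left out and under every alternative setting that was run. The gene body of Hspd1 overlaps Hspe1 and Mob4 on the opposite strand, Mob4 had 940 to 2002 counts, and the strand setting of the authors' counting is not given in the sources used here.

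Hsp90aa1 (chr12:110656842-110669166, minus strand), the inducible cytosolic HSP90, followed the same order in females. WT females had 3074, 3020 and 3469 normalized counts and KO females 1920, 2074 and 2101. In males the values were 3664, 4485 and 3793 in WT and 4094, 4721 and 5224 in KO. The KO females were the lowest 3 mice and the KO males included the 2 highest. The log2 fold change was -0.65 ± 0.11 in females (edgeR quasi-likelihood, adjusted p = 0.0011) and 0.23 ± 0.11 in males (adjusted p = 0.46), and the difference between them was -0.88 ± 0.16 (interaction, adjusted p = 0.0045). With the gene-wise factors implied by the authors' normalized table in place of TMM, the female value fell to -0.35 (adjusted p = 0.13) and the difference to -0.54 (adjusted p = 0.12).

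Hspb1 (chr5:135916760-135918417, plus strand) encodes a small heat shock protein that holds unfolded proteins without using ATP. WT females spread from 247.3 through 351.4 to 405.4 normalized counts, and KO females were at 259.8, 221.2 and 225.5. WT males had 415.1, 442.6 and 451.9 and KO males 436.5, 467.7 and 500.2. The female groups overlapped through WT female replicate 1, which lay below KO female replicate 1. This WT mouse had the highest sums of the WT females for macrophage markers (274 CPM, beside 95.1 and 136) and lymphocyte markers (42.1, beside 14.5 and 18.9). The part of these cells in its values was not tested. The log2 fold change of Hspb1 in females was -0.50 ± 0.16 (edgeR quasi-likelihood, adjusted p = 0.026). Leaving out any of 4 libraries (KO female replicates 2 and 3, WT female replicates 2 and 3) gave an adjusted p of up to 0.1. The call was also lost under upper-quartile scaling (-0.40, adjusted p = 0.063) and in an edgeR fit of the 2 female groups alone (-0.52, adjusted p = 0.069). In males the log2 fold change was 0.10 ± 0.15 (adjusted p = 0.86), and the difference between the sexes did not pass the threshold (-0.60 ± 0.22, edgeR interaction, adjusted p = 0.061). It did pass with the factors of the authors' table (-0.95, adjusted p = 0.014), with DESeq2 (-0.66, adjusted p = 0.035) and under 2 other scalings.

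Of the 10 genes, the 4 that act in the HSP70 cycle (Hsph1, Hspa1a, Hspa1b and Dnajb1) passed the threshold in neither genotype comparison. Over all genes 36.9% were called in females and 0.235% in males. Other HSP70 genes and co-chaperones are given further on. Hsph1 (chr5:149537636-149560156, minus strand), an HSP110 protein that exchanges nucleotide on HSP70, was at 764.5, 649.7 and 756.5 normalized counts in WT females and at 565.8, 499.7 and 535.4 in KO females. WT males had 769.5, 700.5 and 721.5, and KO males 695.8, 1195 and 1471. The female groups did not overlap, as was the case for 49.3% of all genes, but the log2 fold change of -0.44 ± 0.20 did not pass the threshold (edgeR quasi-likelihood, adjusted p = 0.1). It was called in an edgeR fit of the 2 female groups alone (-0.45, adjusted p = 0.017), and with the factors of the authors' table it was -0.18 (adjusted p = 0.57). In males the log2 fold change was 0.62 ± 0.20 (adjusted p = 0.22), with KO replicates 2 and 3 far above the WT mice and replicate 1 just below them. The difference between the sexes passed the threshold (-1.06 ± 0.28, interaction, adjusted p = 0.018). With the factors of the authors' table it was -0.72 (adjusted p = 0.1).

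Hspa1a (chr17:35188166-35191132, minus strand) and Hspa1b (chr17:35175412-35178214, minus strand) encode the stress-inducible HSP70 and start 12918 bases apart. Their coding sequences were identical at 1915 of 1923 aligned bases (99.6%), and 68.1% of 100-base windows of the Hspa1b coding sequence occur unchanged in that of Hspa1a, so the split of reads between the genes is uncertain. Hspa1b was at 906.1, 1266 and 1043 normalized counts in WT females, 1078, 946 and 998.8 in KO females, 1184, 996.1 and 1079 in WT males and 1018, 2159 and 1660 in KO males. The 2 highest mice were KO male replicates 2 and 3, and in females the groups overlapped. Hspa1a spanned 265.3 to 391.6 in WT females, 301.7 to 390.3 in KO females, 323.2 to 415.1 in WT males and 326.4 to 466.7 in KO males, so that all 4 groups overlapped.

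For Hspa1b the log2 fold change was -0.09 ± 0.21 in females (edgeR quasi-likelihood, adjusted p = 0.78) and 0.57 ± 0.21 in males (adjusted p = 0.29), and for Hspa1a it was 0.14 ± 0.18 (adjusted p = 0.57) and 0.11 ± 0.18 (adjusted p = 0.87). The difference between the sexes for Hspa1b, -0.66 ± 0.30, did not pass the threshold (edgeR interaction, adjusted p = 0.11) and did so with the factors of the authors' table (-0.93, adjusted p = 0.046). Summed over both genes, the values were -0.03 ± 0.20 in females (adjusted p = 0.92) and 0.47 ± 0.19 in males (adjusted p = 0.38). Hspa1a took 17.8% to 28.1% of the pair's normalized counts, and its lowest share was in KO male replicate 2, the mouse with the highest Hspa1b.

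Dnajb1 (chr8:84334811-84339820, plus strand), the J-domain partner that stimulates inducible HSP70, was at 416, 390.3 and 456.6 normalized counts in WT females and at 359.1, 417.2 and 349.5 in KO females. WT males had 491.2, 482.9 and 547.5 and KO males 544.7, 753.5 and 595.5. Both pairs of groups overlapped, each through 1 KO mouse. The log2 fold change was -0.16 ± 0.14 in females (edgeR quasi-likelihood, adjusted p = 0.37) and 0.32 ± 0.13 in males (adjusted p = 0.37), and the difference of -0.48 ± 0.19 did not pass the threshold (interaction, adjusted p = 0.075), which it did by DESeq2 (-0.53, adjusted p = 0.048).

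**Figure D2:**
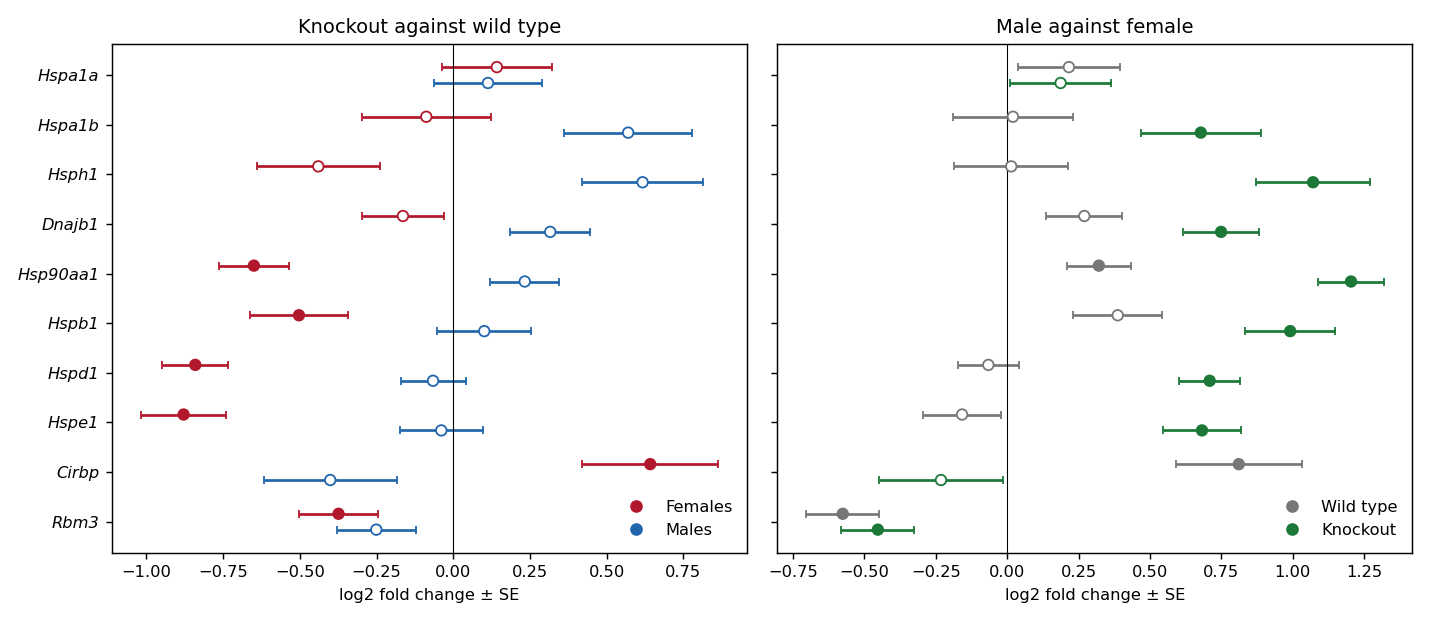
Log2 fold changes ± SE of the 10 genes from the edgeR fit, KO against WT in each sex on the left and male against female in each genotype on the right, 3 mice a group. Filled points have an adjusted p under 0.05: 6 in females and 0 in males on the left, 3 in WT and 8 in KO on the right.

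The 2 cold-inducible genes moved in opposite directions in females. Cirbp (chr10:79997069-80008626, plus strand), whose protein binds and stabilises messenger RNAs in the cold, was at 309.2, 367 and 348.1 normalized counts in WT females and at 538.1, 588.9 and 469.7 in KO females. WT males had 632.7, 532.1 and 631.7, and KO males 671.5, 355.2 and 334.1. Every KO female lay above every WT female, and KO male replicate 1 was the highest of all 12 mice while replicates 2 and 3 were within the range of the WT females. The log2 fold change in females was 0.64 ± 0.22 (edgeR quasi-likelihood, adjusted p = 0.038), which lost its call when any 1 of the 6 female libraries was left out (adjusted p 0.057 to 0.12). In males it was -0.40 ± 0.22 (adjusted p = 0.52), and the difference of 1.04 ± 0.31 passed the threshold (interaction, adjusted p = 0.029), but not in 8 of the 12 fits that each left out 1 library (highest adjusted p = 0.071).

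Rbm3 (chrX:8004213-8012119, minus strand), which like Cirbp encodes a small RNA-binding protein and matches it at 73.2% of aligned coding bases, was at 5090, 4803 and 4785 normalized counts in WT females and at 3039, 4374 and 3916 in KO females. WT males had 3250, 3583 and 3014 and KO males 3049, 2591 and 2635. Every WT female exceeded all other mice. The log2 fold change was -0.37 ± 0.13 in females (edgeR quasi-likelihood, adjusted p = 0.036) and -0.25 ± 0.13 in males (adjusted p = 0.49), with a difference of -0.12 ± 0.18 (interaction, adjusted p = 0.64). The female call was lost without KO female replicate 1 (adjusted p = 0.065) and under upper-quartile scaling (-0.27, adjusted p = 0.11).

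Of the 10 genes, 5 thus had an interaction past the threshold, 4 with the more negative and 1 (Cirbp) with the more positive effect in females, where 25.7% of all genes did (12.4% more negative and 13.4% more positive). The members' median difference was -0.63 beside 0.03 over all genes. In the males no gene of the 10 was called. By unadjusted p under 0.05 there were 3 (Hspa1b, Hsph1 and Dnajb1, each higher in KO), against 11.5% of all genes, and DESeq2 called 0.

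KO male replicate 1 stood apart from the other 2 KO males in these genes, with low Hspa1b and Hsph1 and high Cirbp. Without it the log2 fold changes in males were 0.82 for Hspa1b, 0.87 for Hsph1 and -0.79 for Cirbp. That fit called these 3 of the 10 genes, where 3.42% of 18575 genes were called, but the mouse was singled out by the same genes, so the values are a description and no test. Among the KO males the same mouse had the lowest sum of 8 adipocyte markers (4.66 CPM, beside 67.6 and 39.7), of 7 macrophage markers (109, beside 202 and 190) of 9 lymphocyte markers (11 CPM, beside 23 and 23.1) and of 5 blood markers (2.89, beside 9.86 and 7.54), and the highest sum of 21 immediate early genes (435, beside 367 and 331) and of 7 duct markers (520, beside 411 and 393). Most of the 12 acinar genes, though not all, were at their highest of the KO males in this mouse. Aqp5 (115 CPM beside 79.4 and 83) and Bhlha15 (192 beside 127 and 133) were the highest of the KO males. So were Lpo (335 beside 206 and 218) and Slc12a2 (815 beside 510 and 539). Pip (4070 beside 2790 and 3030) and Prol1 (8700 beside 6690 and 7620) were highest there too. The same held for Muc19 (103 beside 1.8 and 11.5), Dcpp2 (8.7 beside 2.04 and 0.707) and Dcpp3 (8.52 beside 6.13 and 0.628). Dcpp1, Smr3a and Bpifa2 were at 2.4, 0 and 1.86 CPM, below the 59.7, 841 and 2030 of KO male replicate 2. In KO male replicate 3 these were at 0.141, 0 and 0.0942. The granular convoluted tubule markers summed to 73600 CPM in KO male replicate 1, the lowest of the KO males (84600 and 99000 in the others). The WT males were at 1.72 to 2.03 for the adipocyte markers. The part of these cell types and of the immediate early genes in the values of KO males was not tested.

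**Figure D3:**
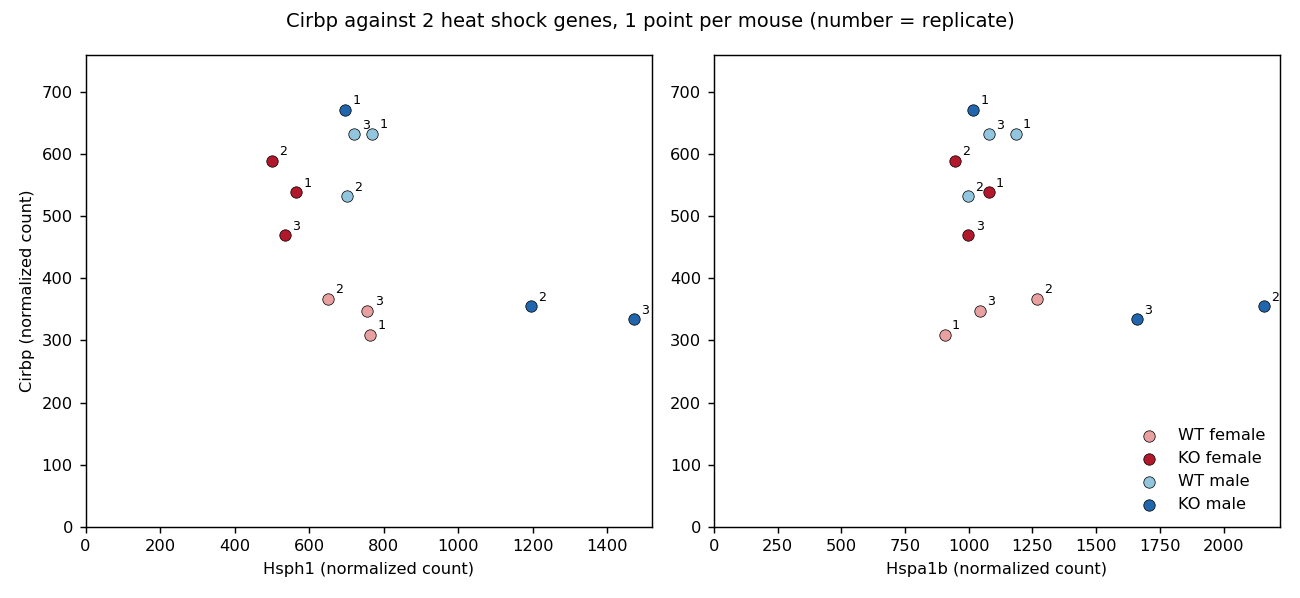
Normalized counts of Cirbp (vertical axis) against those of Hsph1 (left) and Hspa1b (right), 1 point per mouse, coloured by group and numbered by replicate. KO male replicates 2 and 3 sit at the lower right of both panels with Cirbp at 355.2 and 334.1, and KO male replicate 1 at the top with Cirbp at 671.5.

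The sex comparison uses the same 12 libraries as the genotype comparison, so the values here are not independent of those above. In the KO glands 8 of the 10 genes differed between the sexes, where 43.5% of all genes did (23.2% higher and 20.3% lower in males). The 7 called higher in males were Hsp90aa1, Hsph1, Hspb1, Dnajb1, Hspd1, Hspe1 and Hspa1b, and the 1 called lower was Rbm3. Hsp90aa1 rose most, by a log2 fold change of 1.20 ± 0.11 (a fold of 2.3, edgeR quasi-likelihood, adjusted p = 5e-06), followed by Hsph1 at 1.07 ± 0.20 (adjusted p = 0.00096) and Hspb1 at 0.99 ± 0.16 (adjusted p = 0.00029). Dnajb1 was higher by 0.75 ± 0.13, Hspd1 by 0.71 ± 0.11, Hspe1 by 0.68 ± 0.14 and Hspa1b by 0.68 ± 0.21 (edgeR, adjusted p of 0.00066, 2e-04, 0.0016 and 0.019). All but Hspa1b had KO males that lay wholly above the KO females, as 54.8% of all genes had groups without overlap in one or the other direction. Hspa1a did not pass the threshold (0.19 ± 0.18, edgeR, adjusted p = 0.42), whereas Hspa1a and Hspa1b summed were higher in KO males (0.57 ± 0.20, adjusted p = 0.032). The members' median was 0.70 beside -0.02 over all genes and 0.08 over protein-coding genes. Other lists moved in the same comparison. Of 20 immediate early genes 12 were higher and 2 lower in KO males than in KO females (median 0.64), among them Ier3 (2.13 ± 0.38, edgeR, adjusted p = 0.00062) and Btg2 (0.98 ± 0.17, adjusted p = 0.00056). Higher in KO males were also 5 of 8 adipocyte, 3 of 4 blood and 3 of 7 macrophage markers, and none of these was lower. Markers of the gland's own cell types differed too. Of 9 granular convoluted tubule markers 8 were higher in KO males, by log2 fold changes of 4.29 (Klk1b5) to 6.83 (Klk1b3), and Klk1 was lower. Of 7 duct markers 5 were higher (Krt7, Krt8, Krt18, Krt19 and Cftr, by 0.54 to 1.35) and Elf5 lower. Of 12 acinar markers 5 were lower (Aqp5, Bhlha15, Prol1, Lpo and Slc12a2, by -0.62 to -1.85) and Smr3a higher. The Smr3a call rested on KO male replicate 2 (841 CPM), as KO male replicates 1 and 3 were at 0. All 4 CDC-like kinases were lower (median -0.67). The part of these lists and cell types in the heat shock values was not tested.

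Rbm3 was lower in males in both genotypes, by a log2 fold change of -0.45 ± 0.13 in KO (edgeR quasi-likelihood, adjusted p = 0.012) and of -0.58 ± 0.13 in WT (adjusted p = 0.0035). The KO call was lost with the factors of the authors' table (-0.21, adjusted p = 0.24) and without KO female replicate 2 or 3 or KO male replicate 2 or 3 (adjusted p up to 0.082), and the WT call held with any 1 library left out. Cirbp was higher in WT males than in WT females (0.81 ± 0.22, adjusted p = 0.012), without overlap between the groups. In KO glands it did not pass the threshold (-0.23 ± 0.22, adjusted p = 0.42), and without KO male replicate 1 the value was -0.62. The Hspa1b call in KO glands was lost under upper-quartile scaling (0.52, adjusted p = 0.067) and without KO female replicate 2 or KO male replicate 2 or 3 (adjusted p up to 0.1).

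In the WT glands only 3 of the 10 genes were called between the sexes, where 36.5% of all genes were (20.5% higher and 16% lower in males). Beside Cirbp and Rbm3 this was Hsp90aa1, higher in males by 0.32 ± 0.11 (edgeR quasi-likelihood, adjusted p = 0.04), a call that 7 of 9 other settings did not keep (adjusted p up to 0.11). Hspb1 and Dnajb1 also had WT males wholly above the WT females, as 47.6% of genes did not overlap, but did not pass the threshold (0.39 ± 0.16, edgeR, adjusted p = 0.069, and 0.27 ± 0.13, adjusted p = 0.13). In the authors' normalized table both pairs of groups overlapped, and with its factors the log2 fold changes were 0.02 and 0.07. Hspd1, Hspe1, Hspa1b and Hsph1 had log2 fold changes of -0.07, -0.16, 0.02 and 0.01 with SEs of 0.11 to 0.21, and Hspa1a one of 0.22 ± 0.18. The median of the 10 was 0.12 beside 0.06 over all genes. Cell type markers differed between the WT sexes too. Acinar markers summed to 50000 to 58800 CPM in WT females and 14200 to 21000 in WT males. The 21000 of WT male replicate 3 includes 7390 of the sublingual mucin Muc19. Granular convoluted tubule markers summed to 4460 to 8470 CPM in WT females and 57200 to 103000 in WT males. Adipocyte markers summed to 4.16 to 93.4 and 1.72 to 2.03, and macrophage markers, with overlap, to 95.1 to 274 and 79.8 to 96.6. Their part in these values was not tested.

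Levels can be compared between genes once they are divided by transcript length, and their order then depends on the transcript taken. The canonical transcripts of Gencode M39 were used, whereas the reads were quantified on Gencode M35. They are long for Rbm3 (5.007 kb) and Hsph1 (6.178 kb), and a shorter transcript would raise the level. Other transcript lengths were not tried. As CPM per kilobase of the canonical transcript, Hspd1 was the highest of the 10 in WT females (20.6 ± 1.71, SD, n = 3), followed by Rbm3 (16.9 ± 0.592) and Hsp90aa1 (15.6 ± 1.20). In KO females Rbm3 was at 13.0 ± 2.34, Hspd1 at 11.5 ± 0.415 and Hsp90aa1 at 9.96 ± 0.478, and the means of the first 2 differed by less than the SD of Rbm3. In WT males Hspd1 (19.7 ± 2.26) and Hsp90aa1 (19.5 ± 2.16) could not be told apart by their spread, and in KO males Hsp90aa1 led at 22.9 ± 2.77 over Hspd1 at 18.8 ± 2.00. Hspe1 was at 5.28 to 9.73 in group means, Hspb1 at 4.45 to 8.84, Hspa1b at 6.22 to 9.95 and Cirbp at 4.47 to 7.84. The lowest 3 were Hsph1 (1.49 to 3.14), Dnajb1 (1.84 to 3.09) and Hspa1a (1.89 to 2.37).

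Within groups, the genes' deviations from their group means were compared for all 45 pairs over the 12 mice, with exact permutation of the mice within each group. No pair passed Benjamini-Hochberg adjustment, by Pearson's r (lowest adjusted p = 0.1, exact permutation) or by Spearman's rho (lowest adjusted p = 0.088). Hsp90aa1 and Hspe1 had the smallest p (r = 0.83, p = 0.0023; rho = 0.83, p = 0.0031, exact permutation, two-sided), and r was 0.84 without the 2 mice farthest from the median of Hsp90aa1. Hspa1a and Hspa1b had r = 0.804 (p = 0.0062, exact permutation) and 0.68 without 2 mice, and rho = 0.895 (p = 0.0039). Hspa1b and Rbm3 had r = -0.549 (p = 0.0069, exact permutation) and -0.509 without 2 mice, and rho = -0.65 (p = 0.026). Hsp90aa1 and Hspd1 had r = 0.92 (p = 0.011, exact permutation) and 0.83 without 2 mice, and rho = 0.84 (p = 0.019). Hsph1 and Cirbp had r = -0.89 (p = 0.056, exact permutation) and rho = -0.76 (p = 0.063), and r of -0.50 without KO male replicates 1 and 3, so that this relation rested largely on the KO males.

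Over the 12 libraries the genes whose log2 CPM ran most like those of Cirbp, among 6945 outside the 10 with a mean of at least 3 on that scale, were Vsig10 (Pearson's r = 0.96), Slc16a11 (0.95), Fbxl20 (0.94), Marveld2 (0.93) and Zfp827 (0.92). For Hspa1a they were Adcy8 (0.85), Arrdc4 (0.82), Ampd2 (0.80), Edrf1 (0.77) and Zfpl1 (0.74). All points share libraries and scaling factors, and the values are descriptive.

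The rest of the chaperone network was described with 7 lists of 94 genes beside the 10, of which 87 passed the filter. In females 46 of the 87 (52.9%) were lower and 2 (2.3%) higher in KO, beside 19.3% and 17.6% of all genes, and in males 0 of 87 were called by edgeR. The count of lower genes in females was 39 to 52 with 1 library left out and 36 under upper-quartile scaling. The count of higher genes in females was 2 to 7 under the other settings. In the interaction 32 were more negative and 3 more positive in females, and the 3 became up to 6 under the other settings. That 32 became 19 without WT male replicate 1 and 20 without WT male replicate 3. Over all genes the shares were 12.4% and 13.4%. Between the sexes, 45 of 87 (51.7%) were higher and 5 lower in KO males than in KO females, beside 23.2% and 20.3% of all genes, and 16 (18.4%) were higher and 18 (20.7%) lower in WT males than in WT females, close to the 20.5% and 16% of all genes. Under upper-quartile scaling these were 30 higher and 11 lower in KO and 15 higher and 25 lower in WT.

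The chaperonin TRiC, a ring that folds actin and tubulin, and its helper prefoldin had 12 of 15 genes lower in KO females and none higher, with a median log2 fold change of -0.51. Among them Cct6a fell from 2435 ± 45.7 to 1451 ± 56.3 normalized counts (SD, n = 3 each; -0.75 ± 0.10, edgeR quasi-likelihood, adjusted p = 0.00028) and Cct5 from 2434 ± 319 to 1428 ± 52.2 (-0.77 ± 0.11, adjusted p = 0.00042). Of 12 nucleotide exchange factors and co-chaperones of HSP70, 8 were lower, among them St13 (-0.50 ± 0.09, adjusted p = 0.0011) and Bag2 (-0.61 ± 0.13, adjusted p = 0.0036). The remaining HSP70 and HSP110 family had 3 of 8 lower. Hspa13 fell from 4073 ± 216 to 1862 ± 240 (-1.13 ± 0.16, edgeR, adjusted p = 0.00037) and Hspa4 from 3572 ± 197 to 2078 ± 7.75 (-0.78 ± 0.10, adjusted p = 0.00028).

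Of 20 HSP90 genes and co-chaperones, 9 were lower and 1 higher in KO females. Ptges3, the p23 co-chaperone, changed by -0.94 ± 0.14 (edgeR quasi-likelihood, adjusted p = 0.00048) and the immunophilin gene Fkbp4 by -0.75 ± 0.11 (adjusted p = 0.00042), whereas Tsc1 rose by 0.57 ± 0.13 (adjusted p = 0.0045). Cytosolic J-domain genes had 8 of 17 lower, led by Dnajb6 (-0.58 ± 0.09, adjusted p = 0.00046) and Dnaja2 (-1.07 ± 0.16, adjusted p = 5e-04), and 1 higher, Dnajc7 (0.70 ± 0.12, adjusted p = 0.001). In the mitochondrial list 4 of 11 were lower. They included Hspa9, the mitochondrial HSP70 (-0.83 ± 0.12, edgeR, adjusted p = 0.00042), and its J-domain partner Dnaja3 (-0.59 ± 0.09, adjusted p = 0.00067). Small heat shock genes had 2 of 4 lower, Hspb8 (-0.77 ± 0.11, adjusted p = 0.00044) and Cryab (-0.74 ± 0.18, adjusted p = 0.0071).

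**Figure D4:**
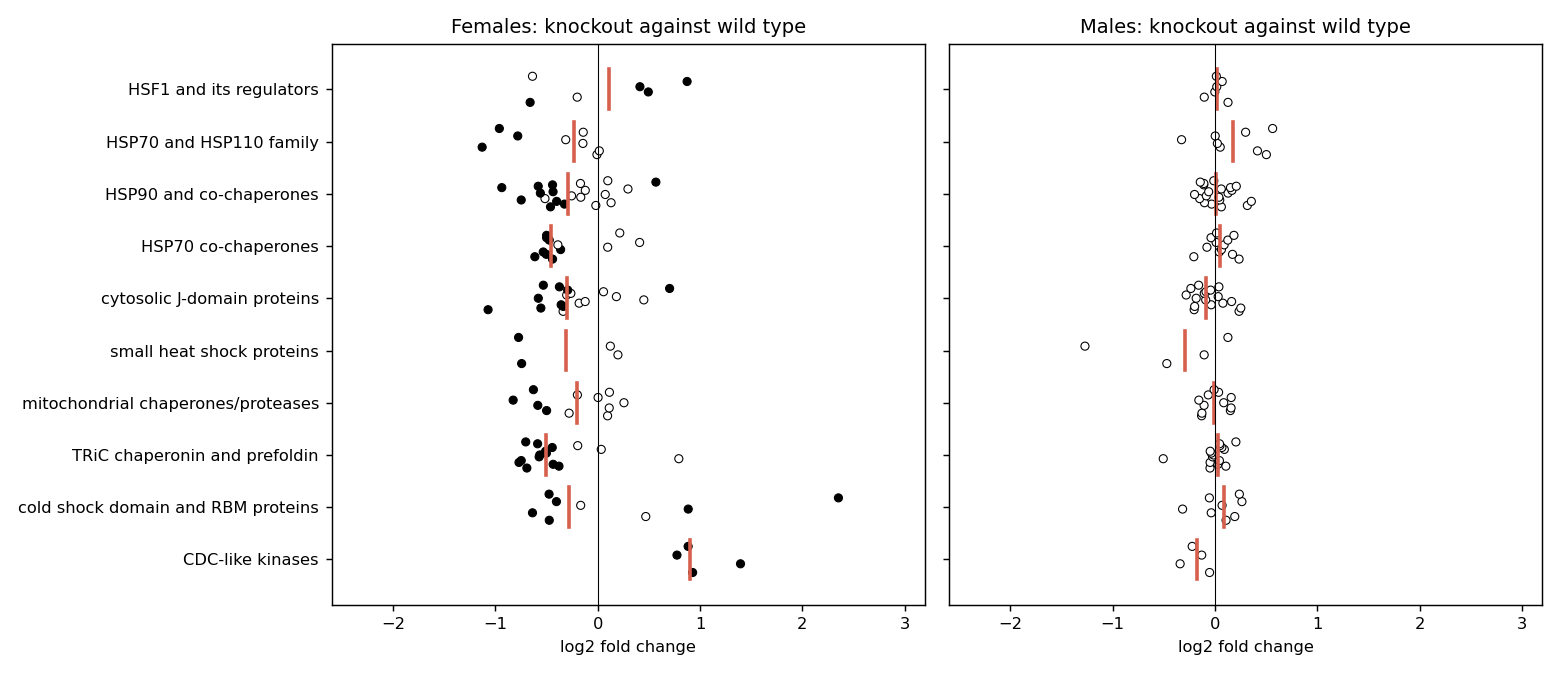
Log2 fold changes between KO and WT (horizontal axes) of each tested gene in 10 lists that leave out the 10 genes, females on the left and males on the right. Filled points have an adjusted p under 0.05 and red bars are list medians, which in females run from -0.51 for TRiC and prefoldin to 0.91 for the CDC-like kinases.

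The 6 regulators of the response did not share a direction in KO females, with 3 higher, 1 lower and 2 not called. Hsf1, the heat shock factor, was higher (579.1 ± 62.4 to 817.6 ± 127 normalized counts, 0.50 ± 0.14, edgeR quasi-likelihood, adjusted p = 0.014), as was the low-level Hsf4 (0.87 ± 0.22, adjusted p = 0.0071), and Hsbp1, whose protein binds HSF1, was lower (-0.66 ± 0.13, adjusted p = 0.0018). The summed level of the 6 was at 43.9 to 49.7 CPM in WT females and at 43 to 44.1 in KO females. All 4 CDC-like kinases, which phosphorylate splicing factors and are more active in cooler cells, were higher in KO females with a median of 0.91. Clk1 rose from 2442 ± 360 to 4647 ± 454 (0.93 ± 0.16, edgeR, adjusted p = 9e-04) and Clk3 from 1470 ± 75.4 to 2517 ± 426 (0.78 ± 0.13, adjusted p = 9e-04), while in males their median was -0.18 and none was called. The effect on all 4 kinases differed between the sexes in the interaction, with a median difference of 1.04.

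Of 8 tested cold shock domain and RBM genes, 2 were higher and 4 lower in KO females. Ybx2 rose from 235.9 ± 89.1 to 1215 ± 138 normalized counts (2.35 ± 0.22, edgeR quasi-likelihood, adjusted p = 8.2e-05) and Rbmx from 533.3 ± 82.0 to 986.9 ± 110 (0.89 ± 0.14, adjusted p = 0.00076). Ybx3 was lower (-0.48 ± 0.10, edgeR, adjusted p = 0.0023). In males no gene of this list was called.

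Other groups of genes moved along with the 10 in these comparisons. The summed acinar markers were at 50000 to 58800 CPM in WT females and at 30600 to 41000 in KO females. In KO females 4 of 12 were called lower (Aqp5, Pip, Lpo and Slc12a2, each abundant in every library). In WT and KO males the sums were at 14200 to 21000 and 11600 to 14300. They include products of neighbouring glands. Muc19 made up 7390 CPM of the 21000 in WT male replicate 3 and 4900 of the 41000 in KO female replicate 3. Bpifa2 was at 2030 CPM in KO male replicate 2. The sums therefore do not rank acinar content between WT and KO males. The 8 adipocyte markers summed to 4.16, 11.2 and 93.4 CPM in WT females and to 2.59 to 7.32 in KO females. Clock genes changed in both sexes, with 3 higher and 12 lower of 18 in KO females and 3 higher and 9 lower in KO males. Bmal1, a core activator of the clock, was at 50.1 ± 8.42 normalized counts in WT and 549 ± 91.0 in KO females (3.45 ± 0.21, edgeR quasi-likelihood, adjusted p = 2e-06) and at 70.6 ± 5.35 in WT and 516.8 ± 123 in KO males (2.87 ± 0.20, adjusted p = 1.4e-05). Dbp, an output gene of the clock, was lower in KO by -2.58 ± 0.18 in females (adjusted p = 7.2e-06) and by -3.17 ± 0.19 in males (adjusted p = 6.4e-06). Of 20 immediate early genes 1 was called in females (Fosl2, 0.50 ± 0.12, adjusted p = 0.0077) and none in males, where their median was 0.53. The part of acinar and fat cell content, of the clock genes and of the immediate early genes in the values of the 10 genes was not tested, and the hour at which the glands were taken is not given in the sources used here.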

How the data were processed

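SMG RNA of 12 mice (4 groups of 3, grouped by the labelled genotype and sex) was sequenced by the authors from ribosomal RNA-depleted, stranded libraries made with 100 ng of RNA, although the labels name the molecule polyA RNA. The authors quantified reads with Salmon (version 1.10.1 per the submitters' processing notes) on GRCm39 with Gencode M35 and deposited a table of estimated counts per gene and a table of normalized counts (unit signal, made from the first by gene-wise factors whose making is not given in the sources used here). Of the values in the deposited estimated counts 78.6% were whole, and all were rounded to whole numbers here. There were 0 columns that matched no sample. Ensembl IDs were named with Gencode M39, which held 55563 of the 56065 IDs and all 10 genes.

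Genes were kept by edgeR's filterByExpr (17893), scaled by TMM and fitted with edgeR 4.0.16 (R 4.3.3) in 1 quasi-likelihood model over the 4 groups (8 residual degrees of freedom), with Benjamini-Hochberg adjustment over all genes. SEs are the log2 fold change divided by the root of the F statistic. Replicates are separate mice by their labels. Same-numbered mice did not deviate together (correlations -0.14 to 0.09), and mice of different numbers spanned -0.11 to 0.15. The numbers were therefore not treated as pairs in the main fit. With 3 mice a group these correlations cannot exclude that same-numbered mice were handled together. The fit was also run on simulated data, and the outcome is not reported here. The alternatives were RLE and upper-quartile scaling, library sizes without the 20 most abundant genes, the factors of the normalized table, no filter, a minimum of 10 counts in every library, DESeq2 1.42.0, fits on 2 groups, a replicate block, each library left out, and Hspa1a with Hspa1b summed. The counts over the other chaperones under these settings were added after the data were seen.

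The 10 genes and the lists were chosen with earlier results of these data known. The text names all 10 in each comparison and, in the chaperone, cold shock, kinase, clock and immediate early lists, genes from the 2 higher and the 2 lower with the smallest adjusted p. Cell type markers are outside this rule, and those given by name were chosen after their values were seen. For males, Hspa1b, Hsph1 and Dnajb1 are also named by unadjusted p. Sequences and coding identities were read with pysam 0.24.0 and Biopython 1.88 from GRCm39 at Gencode M39 transcripts. No protein sequence was used here.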

Additional observations from a re-analysis of the deposited data

Results flagged for a closer look

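Of the 10 genes, 5 had a KO effect that differed between females and males by a test of the difference itself, the edgeR interaction term with Benjamini-Hochberg adjustment over all genes, where 25.7% of all genes did. The difference of log2 fold changes, female minus male, was -1.06 for Hsph1, -0.88 for Hsp90aa1, -0.78 for Hspd1, -0.84 for Hspe1 and 1.04 for Cirbp. For Hspd1 and Hspe1 the male log2 fold changes were near 0 (-0.07 and -0.04), whereas for Hsph1, Hsp90aa1 and Cirbp they had the opposite sign to the female ones (0.62, 0.23 and -0.40) without passing the threshold in males. With the factors of the authors' table the differences for Hsph1 and Hsp90aa1 lost their call (adjusted p = 0.1 and 0.12, edgeR), and that for Cirbp lost it in 8 of the 12 fits that left out 1 library, whereas those for Hspd1 and Hspe1 were called under each alternative that was run. Groups of 3 mice are too small for a search for single outlying libraries.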

How the results depend on the processing

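The number of the 10 genes called was 4 to 6 in females, 0 in males, 5 to 7 for the interaction, 2 or 3 between the sexes in WT and 7 or 8 in KO under the other scalings, filters and tools. With 1 library left out it was 4 to 5, 0 to 3, 4 to 7, 2 to 4 and 6 to 9, and the 3 in males came without KO male replicate 1, which was singled out by those genes. The replicate block gave 6, 0, 5, 3 and 8, as without it, so it changed no count of calls. Within the groups 0 pairs passed under each scaling. Upper-quartile scaling moved the median of all genes in females from 0.03 to 0.13 and between the sexes in KO from -0.02 to -0.18, and the share of calls that were higher from 47.8% to 59.7% and from 53.3% to 38%. Signs turned only for values that were not called, and the cause was not tested. For Hspa1a the interaction of 0.03 became -0.02 (RLE), -0.044 (without the 20 most abundant genes), -0.26 (factors of the authors' table), -0.025 (DESeq2) and -0.50 (summed with Hspa1b), and the female change of 0.14 became -0.083 with those factors and -0.031 summed. For Hspa1b the female change of -0.09 became 0.016 (upper quartile), and the WT sex difference of 0.02 became -0.029 (RLE), -0.026 (DESeq2), -0.059 (upper quartile), -0.01 (without the top 20), -0.10 (factors of the table) and -0.002 (2 groups only). For Hsph1 that difference of 0.01 became -0.034 (RLE), -0.031 (DESeq2), -0.067 (upper quartile), -0.015 (without the top 20) and -0.008 (2 groups only). With 1 library left out, Hspa1a ran from -0.20 to 0.13 (interaction) and -0.047 to 0.25 (females), Hspa1b from -0.26 to 0.001 (females) and -0.13 to 0.13 (sex, WT), Hsph1 from -0.08 to 0.041 (sex, WT), Hspd1 from -0.15 to 0.034 and Hspe1 from -0.11 to 0.091 (both males).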
